A study of Homo sapiens with 34 samples.

Results

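The blood-forming and the supporting cells of a cytokine-free haematopoietic culture were compared on day 12, when both were sorted from the same kind of culture by the presence or absence of CD43. The comparison rests on 6 of the 34 samples of the series, 3 of CD43+ cells and 3 of CD43- cells, chosen by their labels alone. All were derived from H1, an established human embryonic stem cell (ESC) line. Embryoid bodies of H1 cells were attached to collagen IV with BMP4 and VEGF, then kept in a defined medium with VEGF as the only added growth factor, so the CD43+ and CD43- cells share line, matrix and medium. RNA was sequenced by more than 1 company, and since which samples went to which is not given in the sources used here, a sequencing batch was not tested. No haematopoietic cytokine was added to either. Sorting on day 12 used CD43 alone, without the CD45 gate of day 16. The study's methods describe the replicates of a population as independent biological repeats of this 1 line.

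CD43, encoded by SPN, is a sialomucin of the leukocyte surface and the earliest broad surface marker of blood cells in differentiating ESC cultures. Blood cells arise there from haemogenic endothelium, which loses its endothelial junctions as round cells bud off. Granulocytes, macrophages, megakaryocytes and red cells then mature beside the adherent mesenchymal, endothelial and epithelial cells, which deposit matrix and secrete haematopoietic cytokines.

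Expression was measured by RNA sequencing in 20255 genes as whole-number, GC-normalized values, which hold the same 17856940 in sum in every sample. Sequencing depth is therefore unknown, and only the spread between replicates gives an error. All fold changes are CD43+ over CD43- differences of log2(value + 1), given with their standard error (SE, n = 3 and 3). Each SE rests on the spread of a gene pooled over 11 populations, not on the 6 day 12 samples alone. It can therefore understate the error where the CD43- replicates of day 12 are more spread. C1QA, which lost its call in a fit of only the 6 samples, had an SE of 0.85 here and 1.46 there. The added 1 shrinks differences where values are low. The highest value a gene could take was 90700, so genes at that value in 1 population have understated differences too. Genes were called at an adjusted p below 0.05 and a fold change above 4. In bulk samples, fewer cells of a type and less RNA per cell cannot be told apart.

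The labels were first checked against the gene behind the sort and the markers of each cell type. SPN (chromosome 16, 29662979 to 29670876, GRCh38) stood at 122, 120 and 235 in the CD43- samples and at 4458, 7132 and 6791 in the CD43+ samples. Every CD43+ sample lay far above every CD43- sample. The difference was 5.30 ± 0.37 on the log2 scale, and as the sorted antigen it checks the labels only. PTPRC, which encodes the leukocyte phosphatase CD45, was at 4, 197 and 371 against 12848, 8975 and 6920 (7.02 ± 0.92). Its CD43- values differed more among themselves than those of SPN did, with replicate 1 nearly empty and replicates 2 and 3 low.

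**Figure D1:**
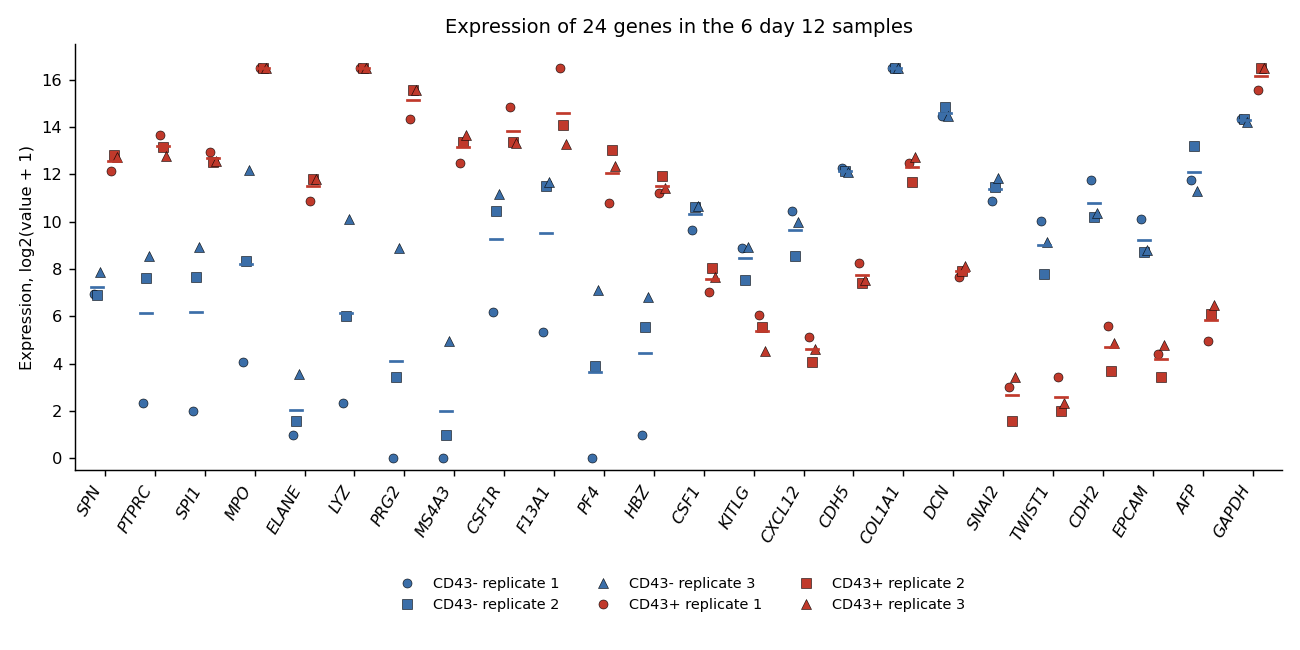
Expression of 24 genes in each of the 6 day 12 samples, as log2(value + 1). Blue symbols are CD43- and red symbols CD43+ replicates (circle, square and triangle for replicates 1, 2 and 3), and short lines are the means of 3 replicates. Blood genes such as MPO and LYZ sit at the ceiling in all CD43+ samples and are scattered in the CD43- samples, while COL1A1 sits at the ceiling in all CD43- samples.

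Expression differed widely between the populations. Of 19788 tested genes, 2329 were called higher in CD43+ cells (11.8%) and 2847 lower (14.4%), with a median log2 fold change of 3.13 among the former and -3.68 among the latter. The median over all tested genes was 0.22. The shares of 11.8% and 14.4% are the background for the counts of called members given for each gene list below. The lists were written with earlier results of these data known, so these counts are descriptions and not tests. Protein-coding genes made up 72.8% of the genes called higher and 90.7% of those called lower, against 82.5% of all tested genes. The 12 largest rises were MS4A3, PRG2, DEFA3, MNDA, DEFA4, DEFA1B, DEFA1, LYZ, CLC, CTSG, PRTN3 and EPX, all genes of granulocytes, monocytes or their precursors, with differences from 11.17 down to 10.04. The 12 largest falls were PCDHAC2, VAT1L, FREM2, SNAI2, TMEM200A, SEMA6D, PTPRT, BACH2, BNC1, PRSS35, LIFR and PALM2-AKAP2, from -9.35 for the first to -8.14 for LIFR, while the read-through gene PALM2-AKAP2 was listed at 0 in all CD43+ samples. Among these were a protocadherin, a basement membrane protein, a mesenchymal transcription factor, an axon guidance ligand and a cytokine receptor.

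The CD43- replicates of day 12 were more spread than those of the other 10 populations. Over all tested genes the median range of the 3 replicates was 0.72 on the log2 scale in CD43- and 0.53 in CD43+ cells, against 0.23 to 0.54 in the 9 populations of other days. The corresponding root mean variance was 0.729 and 0.588 against 0.411 to 0.565, so CD43+ cells exceeded the other days by the second measure but not by the first. Within each population the replicates nevertheless correlated across genes, which are not independent, at r = 0.951 to 0.965 for CD43- and 0.967 to 0.977 for CD43+ cells. The spread was largest where CD43- cells were low. Among genes called higher in CD43+ cells, the CD43- range had a median of 1.44 and exceeded 4-fold in 29.4% of genes, whereas the CD43+ range had a median of 0.80. The 2 groups did not overlap in 97.0% of the genes called higher and 97.6% of those called lower. A call already requires a large difference between the same samples, so these 2 shares do not measure the effect of the spread. Over all tested genes, called or not, the groups did not overlap for 35.2% of genes with CD43+ higher and 26.4% with CD43+ lower. The closest CD43+ and CD43- samples stood more than 4-fold apart, with CD43+ higher, for 1123 genes (5.68%) and, with CD43+ lower, for 1832 genes (9.26%).

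**Figure D2:**
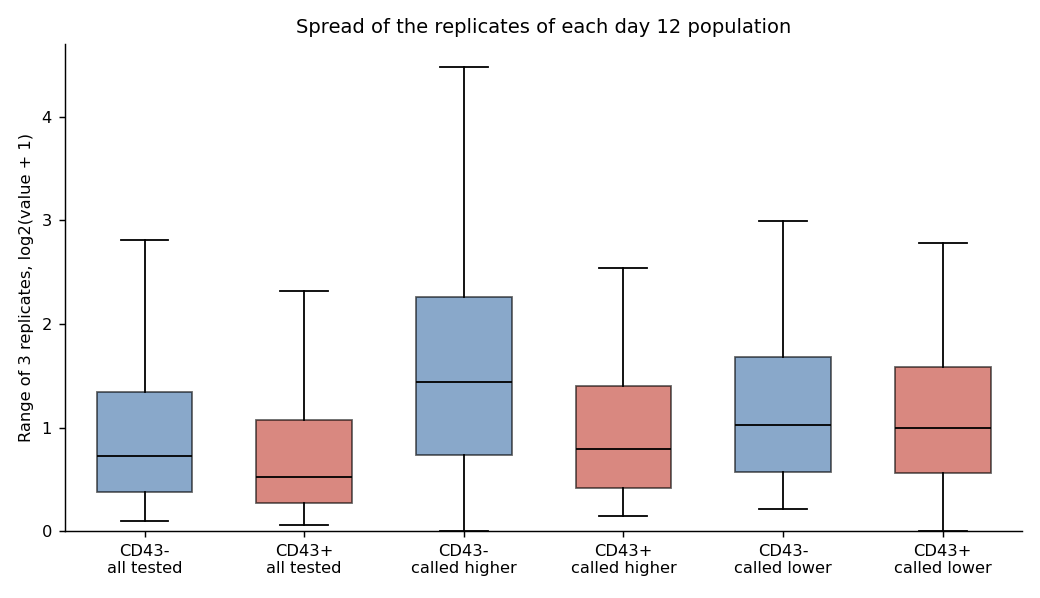
Range of the 3 replicates of each day 12 population in log2(value + 1), for all 19788 tested genes and for the genes called higher or lower in CD43+ cells. Boxes give the quartiles with the median as a line, and whiskers the 5th and 95th percentiles. The CD43- box of genes called higher stands above the others, with a median of 1.44.

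The spread of CD43- cells included named blood genes, but other genes did not all share their order of replicates. The 5 endoderm markers, for example, summed to 6001, 13702 and 4459 in CD43- replicates 1, 2 and 3. The summed value of 12 general blood cell markers was 2076, 4577 and 7526 in CD43- replicates 1, 2 and 3, against 83615 to 96602 in CD43+ cells, and no marker of the list was at 0 in any CD43- sample. For 6 neutrophil lineage markers the CD43- sums were 118, 863 and 7331, with 2 markers at 0 in replicate 1, and the CD43+ sums 190337, 190886 and 218073. CD43- replicate 3 thus carried the most blood transcripts and replicate 1 the least, in the neutrophil, eosinophil, macrophage, megakaryocyte and erythroid marker lists, and mast cell markers were at 0 in replicates 1 and 2 and at 2 in replicate 3. For MPO, the myeloperoxidase of azurophil granules, the CD43- values were 16, 324 and 4608 while all 3 CD43+ values stood at 90700. SPI1, which encodes the myeloid transcription factor PU.1, was at 3, 203 and 486 against 7746, 5870 and 6052. The part of blood transcripts of CD43- samples in each difference was not tested. With CD43- replicate 1 as the only CD43- sample, an alternative chosen after the data were seen in which that sample is assumed to vary like the other groups, 5235 genes were called, 4513 of them shared with the 5176 called from all 6 samples.

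CD43+ replicates differed in which blood lineage was prominent. The 6 macrophage markers summed to 75650 in CD43+ replicate 1 and to 22939 and 17992 in replicates 2 and 3. The 5 megakaryocyte markers showed the reverse, with 10600 in replicate 1 and 39592 and 24833 in the others, and the 5 erythroid markers gave 7872, 23083 and 15288. F13A1, the transglutaminase factor XIII A chain of macrophages and platelets, was at 90700, 17332 and 9882 in CD43+ cells. LTF, the lactoferrin of specific granules, had one of the widest CD43+ ranges, with 1014, 64 and 146, and was listed at 0 in all 3 CD43- samples. The complement receptor VSIG4 of tissue macrophages was at 2460, 250 and 182. Replicate 1 was the highest of the CD43+ samples for each of these genes.

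**Figure D3:**
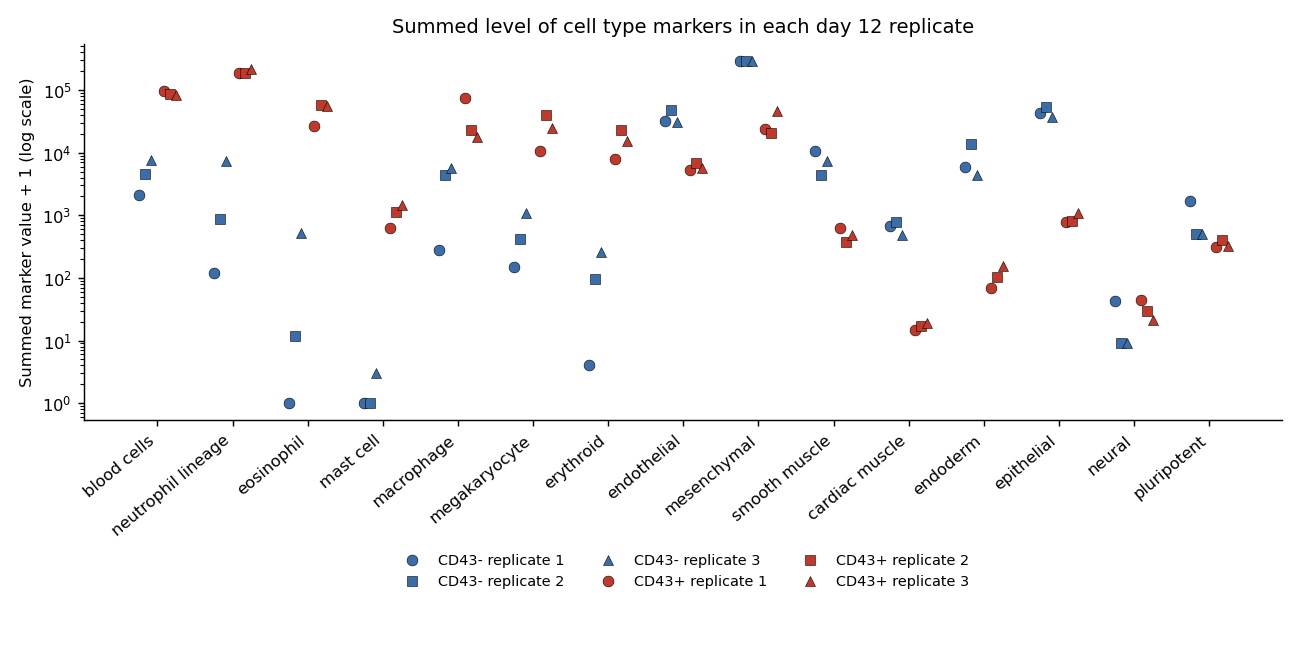
Summed values of the markers of 15 cell types in each day 12 sample, plus 1, on a log axis. Blue symbols are CD43- and red symbols CD43+ replicates. Blood cell sums of CD43- cells are lowest in replicate 1 and highest in replicate 3, mesenchymal sums of CD43- samples are dominated by COL1A1 and COL3A1 at the ceiling, and CD43+ replicate 1 is highest in macrophage and lowest in megakaryocyte markers.

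Azurophil granules are the first granules that neutrophil precursors fill, with proteases, defensins and myeloperoxidase. All 13 genes of this list were called higher in CD43+ cells, against 11.8% of all tested genes, with a median difference of 9.63. ELANE, neutrophil elastase, was at 1, 2 and 11 in CD43- and at 1856, 3605 and 3605 in CD43+ cells (9.44 ± 0.55, adjusted p = 3.25e-14). PRTN3, proteinase 3, was at 0, 22 and 1172 against 29015, 29015 and 37178 (10.04 ± 1.27). The SE was larger for PRTN3 than for ELANE, and the CD43- samples of PRTN3 ran from 0 to over 1000. LYZ, which encodes lysozyme, was at 4, 64 and 1089 against 90700 in every CD43+ sample (10.32 ± 1.04). DEFA1, DEFA1B and DEFA3 encode nearly identical defensins, so reads may be split among them, and each was listed at 0 in CD43- replicates 1 and 2. For DEFA3 the CD43+ values were 6002, 4374 and 4779. CTSC, the protease that activates the granule serine proteases, and RAB27A, a GTPase of granule release, rose less, CTSC by 3.26 ± 0.29, and CD43- samples held 1396 to 1746 and 237 to 350 of them.

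Later granules were represented by weaker transcripts. Of 14 tested genes of specific and gelatinase granules and S100 proteins, 12 were called higher, with a median of 6.12, and MMP8, the neutrophil collagenase, had values too low to test. S100A8 and S100A9, the subunits of calprotectin, reached 15794 in all 3 CD43+ samples and 28960 to 47984, from 0, 19 and 200 and from 38, 380 and 845 in CD43- samples. CAMP, the cathelicidin gene, was listed at 0 in CD43- samples and at only 41, 4 and 4 in CD43+ samples. PGLYRP1, a peptidoglycan binding protein, likewise was at 0 in all CD43- samples and at 246, 14 and 90. MMP9, gelatinase B, was at 322, 490 and 724 against 4608, 1491 and 1066, a difference of 1.999 that was not called. Of the 7 genes of the phagocyte NADPH oxidase, which makes superoxide, 5 were called higher, among them CYBB, NCF1 and RAC2. CYBB, its catalytic subunit, was at 6, 409 and 680 against 29026, 17368 and 17368 (7.37 ± 0.90). Reads of NCF1 may be shared with its pseudogene copies. The widely expressed CYBA and RAC1 differed by 1.85 ± 0.14 and 0.04 ± 0.14 and were not called.

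Eosinophil and basophil genes rose as a whole list, 11 of 11 called with a median of 8.70. PRG2, the major basic protein of eosinophil granules, was at 0, 10 and 473 against 20431, 48061 and 48061 (11.03 ± 1.35, adjusted p = 4.93e-08). EPX, eosinophil peroxidase, was at 0, 1 and 30 against 3172, 5292 and 4269 (10.04 ± 0.88). IL5RA, the IL-5 receptor subunit through which eosinophils expand, was at 0, 2 and 4 against 296, 652 and 618 (7.64 ± 0.65). All 3 genes were at 0 in CD43- replicate 1 and had their lowest CD43+ value in replicate 1. MS4A3, a membrane protein of granulocyte and monocyte precursors, had the largest rise of all genes, with 0, 1 and 30 against 5644, 10446 and 12854 (11.17 ± 0.75). Mast cell genes were called in 7 of 10 tested cases, at low values. HDC, histidine decarboxylase of mast cells and basophils, was at 0, 0 and 2 against 492, 999 and 1247 (9.20 ± 0.52), and CPA3, mast cell carboxypeptidase, was listed at 0 in CD43- samples and at 112, 98 and 112 in CD43+ samples. The tryptase genes TPSAB1 and TPSB2, near-identical copies, were also at 0 in CD43- samples and at 15 to 102 and 44 to 58. KIT, the stem cell factor receptor of mast cells and progenitors, was at 171, 338 and 354 against 316, 582 and 492, and the groups overlapped (0.71 ± 0.37, adjusted p = 0.0875).

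The promoters of 4 of the 12 largest rises are shown as examples of the genes that differed most. They are RefSeq sequences of GRCh38.p14, from 250 bases before to 50 bases after the annotated start, 5′ to 3′ on the gene's strand, and capitals mark matches, on either strand, to 4 motifs of blood transcription factors. MS4A3 is on chr11:60056415-60056714 (+), MNDA, a nuclear protein of myeloid cells, on chr1:158831101-158831400 (+), CLC, the galectin of Charcot-Leyden crystals, on chr19:39737980-39738279 (-), and CTSG, cathepsin G, on chr14:24576201-24576500 (-).
MS4A3: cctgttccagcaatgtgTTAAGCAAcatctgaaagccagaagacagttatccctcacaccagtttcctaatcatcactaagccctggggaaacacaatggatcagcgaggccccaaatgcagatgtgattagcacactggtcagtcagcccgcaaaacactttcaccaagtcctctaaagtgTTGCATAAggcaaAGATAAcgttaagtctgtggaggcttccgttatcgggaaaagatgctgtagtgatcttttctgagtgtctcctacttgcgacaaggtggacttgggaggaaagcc
MNDA: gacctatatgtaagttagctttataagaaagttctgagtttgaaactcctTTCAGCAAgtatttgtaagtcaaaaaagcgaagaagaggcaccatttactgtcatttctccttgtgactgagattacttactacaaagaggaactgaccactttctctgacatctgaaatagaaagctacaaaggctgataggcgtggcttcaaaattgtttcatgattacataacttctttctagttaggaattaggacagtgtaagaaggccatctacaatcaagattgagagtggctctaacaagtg
CLC: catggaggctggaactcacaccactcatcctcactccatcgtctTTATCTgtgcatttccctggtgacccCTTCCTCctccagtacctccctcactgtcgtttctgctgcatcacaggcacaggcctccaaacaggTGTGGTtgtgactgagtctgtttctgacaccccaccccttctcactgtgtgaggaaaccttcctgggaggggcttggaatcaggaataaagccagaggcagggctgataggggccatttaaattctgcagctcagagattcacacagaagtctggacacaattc
CTSG: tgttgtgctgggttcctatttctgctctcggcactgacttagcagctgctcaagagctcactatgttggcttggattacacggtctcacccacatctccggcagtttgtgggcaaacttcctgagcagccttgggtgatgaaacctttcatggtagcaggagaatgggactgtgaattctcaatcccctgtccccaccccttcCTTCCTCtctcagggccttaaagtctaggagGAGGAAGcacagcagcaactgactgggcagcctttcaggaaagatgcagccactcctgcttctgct
GAGGAAG stood for the PU.1-type ETS motif, TTNNGCAA for C/EBP factors, AGATAA for the erythroid and eosinophil family of GATA1, and TGTGGT for RUNX factors, and no 2 matches overlapped in these windows. MS4A3 held C/EBP matches 233 and 68 bases and a GATA match 55 bases before its start, MNDA a C/EBP match 200 bases before, and CTSG PU.1-type matches 47 and 16 bases before. CLC held a GATA, a PU.1-type and a RUNX match 206, 180 and 114 bases before its start. Among the 12943 tested genes with a promoter in the table, the PU.1-type motif was found in 14.7%, in 20.3% of 1293 called higher and in 13.5% of 1913 called lower. The C/EBP motif was in 7.53%, 11.8% and 7.005% of these promoters, the GATA motif in 6.20%, 10.1% and 7.68%, and the RUNX motif in 9.89%, 14.4% and 9.67%. Over all 27305 promoters of the table the 4 shares were 13.4%, 10.6%, 10.5% and 13.1%. A match is a description of these letters and no evidence of binding.

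All 20 genes of the monocyte and macrophage list were called higher in CD43+ cells, with a median of 4.77. Here too the CD43- samples were not uniform. CSF1R, the receptor of the macrophage growth factor CSF1, was at 71, 1379 and 2314 against 29020, 10439 and 10082 (4.57 ± 0.75, adjusted p = 5.22e-06). CD163, the haemoglobin scavenger receptor, was at 32, 936 and 838 against 17368, 4720 and 2706 (4.35 ± 0.72). C1QA, a chain of complement C1q, was at 12, 410 and 502 against 3984, 1600 and 1178 (3.82 ± 0.85). For each of the 3 genes, CD43- replicates 2 and 3 held much more than replicate 1, CD43+ replicate 1 held the most, and the groups did not overlap. CCR2, the chemokine receptor of monocytes leaving the marrow, was listed at 0 in all CD43- samples and at 199, 235 and 202 in CD43+ samples. MARCO, a scavenger receptor, was also at 0 and then at 65, 147 and 148. In a fit of only the 6 day 12 samples 16 of the 20 genes were called, and the adjusted p was 0.0707 for C1QA and 0.0874 for VSIG4.

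Of 20 genes of Toll-like receptors and inflammatory mediators 19 were called higher, with a median of 4.80. TLR2, which senses bacterial lipoproteins, was at 10, 66 and 206 against 3016, 1607 and 1560 (5.20 ± 0.58). TLR8, an endosomal RNA sensor, was at 0, 0 and 4 against 596, 239 and 236 (7.57 ± 0.46). CASP1, the protease of inflammasomes, was at 1, 160 and 136 against 3226, 2194 and 1917 (6.08 ± 0.90). No CD43- value of these receptors and proteases approached the CD43+ values. IL1B, the cytokine that CASP1 matures, rose by 5.24 ± 0.91, while IL18, another of its substrates, reached only 63 to 88. CXCL8, the neutrophil chemokine, was at 41, 110 and 1314 against 3016, 2036 and 10442 (4.45 ± 0.81), with replicate 3 highest in both populations. PTGS2, the inducible cyclooxygenase, was the exception, at 646, 506 and 959 against 1084, 545 and 874 (0.24 ± 0.45, adjusted p = 0.655).

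MHC class II genes, which present peptides to helper T cells, were called higher in 6 of 10 cases and lower in 1. HLA-DRA was at 1, 6 and 38 against 1990, 404 and 717 (6.67 ± 0.66), and CIITA, the master coactivator of the class, at 156, 44 and 118 against 918, 527 and 572 (2.79 ± 0.43). CD43+ replicate 1 was the highest CD43+ sample for all 10 genes. HLA-DQB1 was called lower, at 47, 182 and 83 against 50, 16 and 4 (-2.47 ± 0.62, adjusted p = 9.85e-04), although its groups overlapped. Its adjusted p was 0.0733 in a fit of the 6 samples, and near-identical MHC copies make it uncertain.

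Megakaryocyte and platelet genes were called higher in 18 of 20 cases, with a median of 5.23. PF4, the platelet chemokine, was at 0, 14 and 136 against 1752, 8272 and 5193 (8.38 ± 0.90, adjusted p = 4.81e-09). GP9, a subunit of the von Willebrand factor receptor, was at 2, 4 and 30 against 636, 2324 and 1440 (7.38 ± 0.67). ITGA2B, the fibrinogen receptor chain CD41, was at 108, 342 and 398 against 3207, 10832 and 8272 (4.74 ± 0.45). CD43+ replicate 1 was the lowest and replicate 2 the highest for all 3 genes. VWF itself, which endothelium also makes, was lower in CD43+ cells, at 1548, 534 and 764 against 92, 231 and 140 (-2.57 ± 0.47). ANGPT1, the ligand of the TIE2 receptor, was not called.

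Red cell genes were split. Of 10 haemoglobin genes 9 were called higher, with a median of 6.89. The embryonic genes HBE1 and HBZ were at 2, 25 and 78 against 2618, 9248 and 6256 (8.18 ± 0.67) and at 1, 46 and 111 against 2378, 3854 and 2770 (7.07 ± 0.85). The foetal gene HBG2 was at 0, 25 and 70 against 2700, 9714 and 6064 (8.79 ± 0.93), with reads possibly shared with its near-copy HBG1. Its listed span on chromosome 11 (5248274 to 5645789) also encloses that of HBE1 (5268345 to 5505617). The values of HBG2 and HBE1 nearly coincide, so the levels of these 2 genes cannot be told apart. Adult HBB was at 0 in CD43- samples and at 1, 0 and 1 in CD43+ samples and was not called. Of 25 erythroid and haem biosynthesis genes 13 were called higher and none lower. Among these, ALAS2, the erythroid first enzyme of haem synthesis, and KLF1, the erythroid transcription factor, were at 0 in CD43- samples and at 115 to 187 and 114 to 218 in CD43+ samples. The 7 other haem enzymes differed by 0.01 to 1.19 and were not called. EPOR, the erythropoietin receptor, was at 588, 895 and 918 against 326, 332 and 324 (-1.26 ± 0.16), below the fold limit.

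Lymphoid genes were called in 7 of 14 tested cases, mostly at low values. NKG7, a cytotoxic granule protein, was at 2, 63 and 202 against 2974, 3567 and 4147 (6.70 ± 1.04). The B cell receptor gene CD79A reached at most 30, and PAX5, the B cell transcription factor, at most 4 in CD43+ cells. The T cell receptor chains CD3D and CD247 were at 0 in all CD43- samples and at 0 to 2 in CD43+ samples. All 16 genes of leukocyte integrins and migration were called higher, with the closest samples of the 2 groups more than 4-fold apart in each. ITGB2, the common chain of leukocyte integrins, was at 78, 751 and 1097 against 14678, 10080 and 10080 (4.83 ± 0.53). CORO1A, an actin regulator of blood cells, was at 94, 318 and 538 against 11498, 9886 and 11186 (5.42 ± 0.38).

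Of 10 haematopoietic transcription factors 8 were called higher. MYB, required for definitive blood formation, was at 6, 7 and 16 against 1167, 2054 and 2700 (7.57 ± 0.53). GATA1, which directs the megakaryocyte, erythroid and eosinophil lineages, was at 0, 0 and 14 against 321, 1012 and 782 (8.01 ± 0.62). RUNX1, which drives the exit from endothelium, was already at 590, 626 and 1585 in CD43- samples, against 5697, 5550 and 5775 (2.76 ± 0.30). LMO2 and GATA2, factors that endothelium shares, differed by 1.86 ± 0.27 and 1.66 ± 0.31 with no overlap of the groups, under the fold limit. Of 15 myeloid factors 7 were called higher. CEBPE, the factor of late granulocyte maturation, was at 0, 0 and 2 against 590, 604 and 680 (8.76 ± 0.59). CEBPA, which commits cells to the myeloid fate, rose by 2.91 ± 0.24 from 344 to 384 in CD43- samples. CEBPB and CEBPD were high in both populations, at 2334 to 3750 and 2296 to 4323 over the 6 samples, and were not called. KLF4 leaned the other way, at 8272, 6466 and 9722 against 5703, 3516 and 3322 (-0.99 ± 0.33), below the fold limit.

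Haematopoietic cytokine ligands were higher in CD43- cells or not called. Of 12 tested ligands none was called higher and 7 were lower in CD43+ cells, with a median of -2.34, against 14.4% of all tested genes called lower. CSF1 was at 810, 1551 and 1606 in CD43- samples and at 131, 260 and 202 in CD43+ samples (-2.73 ± 0.27, adjusted p = 1.36e-09), opposite to its receptor CSF1R above. KITLG, the stem cell factor, was at 473, 186 and 492 against 65, 46 and 22 (-3.09 ± 0.38). CXCL12, the chemokine that retains progenitors in their niche, was at 1410, 369 and 1026 against 34, 16 and 24 (-5.05 ± 0.47). Each CD43- sample exceeded each CD43+ sample for the 3 ligands. Their receptors KIT and CXCR4 were not called, CXCR4 with 1724, 643 and 845 against 1034, 913 and 920 (-0.04 ± 0.69). IL11 and LIF, of the IL-6 family, fell by 3.89 and 2.44 on the log2 scale. EPO stood at 2, 6 and 4 in CD43- samples and at 0 in CD43+ samples. THPO, the megakaryocyte growth factor, was at 4, 4 and 11 against 1, 1 and 2 and was not called.

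Of 17 receptors 6 were called higher, against 11.8% of all tested genes, and 3 lower, a share near the 14.4% of all tested genes. CSF2RA and CSF2RB, which form the GM-CSF receptor, rose by 3.15 ± 0.31 and 3.88 ± 0.51. CSF3R, the G-CSF receptor, was at 334, 675 and 798 against 8946, 9202 and 9202 (4.01 ± 0.35). LIFR, the LIF receptor, was at 17373, 29030 and 11512 in CD43- samples and at 54, 63 and 72 in CD43+ samples (-8.14 ± 0.31, adjusted p = 4.47e-18). IL6ST, the gp130 subunit that LIFR pairs with, fell by 2.45 on the log2 scale, from 13324 to 17368 in CD43- samples to 2535 to 3402. IL6R, at 1091, 3088 and 2638 against 8512, 6592 and 6372, was higher in every CD43+ sample but stayed under the fold limit (1.78 ± 0.29).

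Endothelial genes were called lower in 11 of 20 cases, with a median of -3.73, and none was called higher. CDH5, the junction protein VE-cadherin, was at 4850, 4480 and 4380 against 301, 171 and 186 (-4.42 ± 0.37, adjusted p = 4.36e-11). KDR, the main VEGF receptor, was at 13311, 29000 and 14002 against 350, 549 and 280 (-5.53 ± 0.36). SOX17, a factor of arterial and haemogenic endothelium, was at 658, 400 and 782 against 26, 37 and 40 (-4.09 ± 0.56). The groups were clearly separate for these genes. Some endothelial genes that blood cells also use were not called. PECAM1, the adhesion molecule CD31, was at 6820, 5909 and 4786 against 3820, 4478 and 3517 (-0.56 ± 0.34, adjusted p = 0.150), and EGFL7 and ENG overlapped between the groups. CD34, carried by endothelium and by blood progenitors, was at 3400, 2980 and 2204 against 328, 534 and 560 (-2.61 ± 0.34). THY1, a surface marker of fibroblasts and of stem cells, was at 2690, 926 and 1458 against 41, 8 and 12 (-6.50 ± 0.39).

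Matrix genes were lower in CD43+ cells. All 18 collagen genes were called lower, with a median of -5.75, and 17 of them had the closest samples more than 4-fold apart. COL1A1, a chain of type I collagen, was at 90700 in all 3 CD43- samples and at 5777, 3241 and 6690 in CD43+ samples (-4.18 ± 0.35, adjusted p = 5.30e-11). COL4A6, a basement membrane chain, was at 1130, 1934 and 2931 against 8, 8 and 13 (-7.48 ± 0.29). COL3A1 was at 90700 in CD43- samples and still at 11200, 12848 and 29026 in CD43+ samples (-2.49 ± 0.69). Both interstitial collagens thus remained at 3241 or more in every CD43+ sample. The 7 mesenchymal markers, of which COL1A1 and COL3A1 were at the ceiling in CD43- cells, summed to 23757, 20909 and 45648 in CD43+ samples and to 286947 to 290452 in CD43- samples, and none was at 0 in CD43+ cells. The part of adherent cells in the CD43+ samples was not tested. Of 28 other matrix genes 20 were called lower and none higher. FN1, fibronectin, was at 90700 in all CD43- samples against 3167, 1444 and 2882 (-5.26 ± 0.43). DCN, the proteoglycan decorin, was at 22842, 29026 and 22842 against 203, 240 and 278 (-6.69 ± 0.43). FREM2, a basement membrane protein of epithelia, was at 12018, 37190 and 8977 against 28, 37 and 48 (-8.72 ± 0.43), and NPNT, nephronectin, at 3758, 48061 and 4615 against 16, 48 and 62 (-7.97 ± 0.87). CD43- replicate 2 was the highest for both. TIMP1 and TIMP2, protease inhibitors that many cells make, were not called.

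Mesenchymal transcription factors were lower in 15 of 20 cases, with a median of -5.06. SNAI2, a repressor of epithelial junctions, was at 1854, 2804 and 3646 against 7, 2 and 10 (-8.70 ± 0.51). PRRX1, a factor of limb and fibroblast mesenchyme, was at 2303, 398 and 867 against 6, 1 and 6 (-7.65 ± 0.61). HAND1, of lateral and extraembryonic mesoderm, was at 2774, 5250 and 2650 against 24, 24 and 30 (-6.98 ± 0.48). ZEB2, which macrophages and other blood cells express too, was higher in each CD43+ sample, at 12018, 10085 and 9728 against 2706, 2920 and 5486 (1.59 ± 0.46), under the fold limit. Its relative ZEB1 fell by 3.80 on the log2 scale. Smooth muscle and pericyte genes were lower in 15 of 16 cases. MYH11 was not called, at 72, 20 and 54 against 101, 71 and 48, and its groups overlapped. ACTA2, smooth muscle actin, was at 4370, 1392 and 2974 against 127, 32 and 118 (-5.05 ± 0.51), and PDGFRB, a pericyte receptor, at 6466, 5703 and 7630 against 240, 212 and 356 (-4.64 ± 0.19). Of 16 cardiac genes 10 were lower, among them GATA4 (-6.28 ± 0.48) and ACTC1, the cardiac actin (-6.37 ± 0.46). TNNI3, cardiac troponin I, was the only one called higher, at 4, 12 and 12 against 128, 344 and 249 (4.56 ± 0.51). The chamber myosins MYH6 and MYH7 were at 0 to 8 over the 6 samples.

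**Figure D4:**
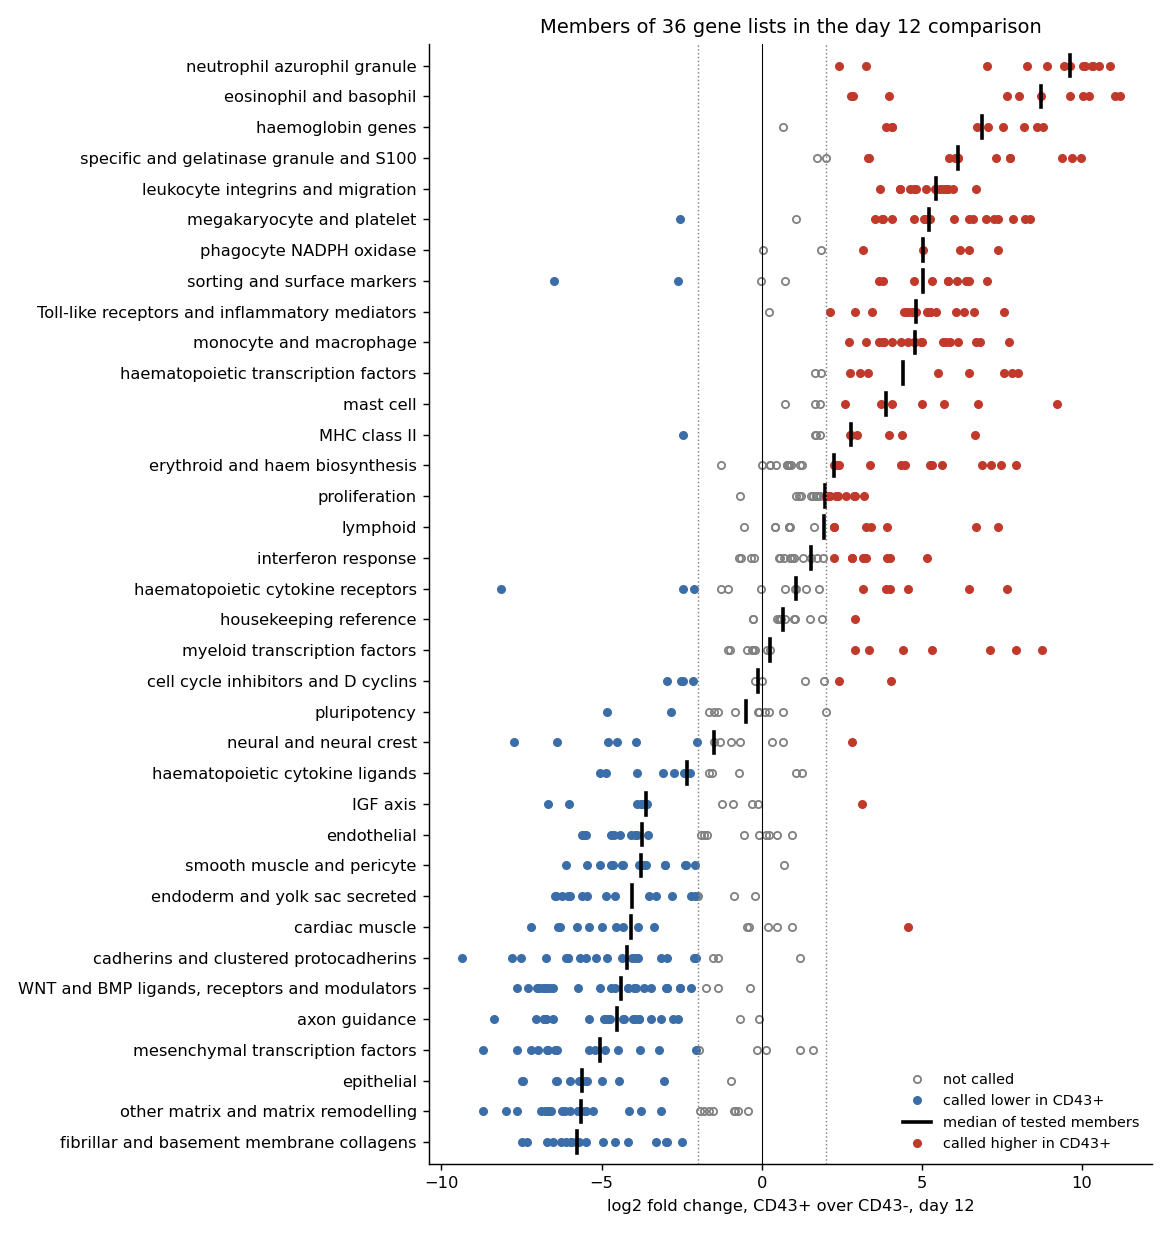
Fold changes of the tested members of 36 gene lists, CD43+ over CD43- on day 12, on the log2 scale, with lists ordered by their median (black bar). Filled red and blue points are genes called higher and lower, open points were not called, and dotted lines mark the 4-fold limit. Azurophil granule genes lie furthest to the right with a median of 9.63, and collagens furthest to the left with -5.75.

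CD43- cells also held endoderm-like and epithelial transcripts. Of 18 endoderm and yolk sac secreted genes 14 were lower in CD43+ cells. AFP, alpha-fetoprotein, was at 3490, 9499 and 2522 against 30, 68 and 88 (-6.25 ± 0.65), and APOB, the main apolipoprotein of secreted lipid particles, at 1340, 2494 and 1160 against 18, 7 and 40 (-6.42 ± 0.68). CD43- replicate 2 was the highest for both. Of 12 epithelial genes 11 were lower, with a median of -5.61. KRT8, a simple epithelial keratin, was at 29030, 37190 and 25876 against 532, 530 and 692 (-5.71 ± 0.29), and EPCAM, an epithelial adhesion molecule, at 1114, 424 and 444 against 20, 10 and 27 (-4.998 on the log2 scale). Neural and neural crest genes were lower in 6 of 13 cases, led by STMN2, a tubulin regulator, at 3518, 13327 and 3426 against 12, 30 and 41 (-7.73 ± 0.64). ELAVL4 was called higher, at low values of 2, 0 and 0 against 24, 6 and 5 (2.82 ± 0.58), and 6 were not called. Of 12 pluripotency genes L1TD1 and ZSCAN10 were called lower, a share near the 14.4% of all tested genes. POU5F1, which encodes OCT4, was at 397, 44 and 48 against 166, 73 and 58 (-0.09 ± 0.55, adjusted p = 0.898), with CD43- replicate 1 apart from the other 5 samples. LIN28B, a repressor of let-7 maturation, was nearly level at 1146 to 1694 in all 6 samples.

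Adhesion and guidance genes formed another large group on the CD43- side. Cadherins and clustered protocadherins were lower in 21 of 24 cases. PCDHAC2, of the alpha cluster on chromosome 5 (140966235 to 141012344), was at 620, 1244 and 714 against 0, 1 and 0 (-9.35 ± 0.35, adjusted p = 3.79e-18), the largest fall of all genes. Transcripts of the cluster share exons, so reads can be split among its members. CDH11, a mesenchymal cadherin, was at 9485, 5632 and 7902 against 76, 22 and 38 (-7.51 ± 0.42). Axon guidance genes were lower in 22 of 24 cases, with a median of -4.53. SLIT2, a secreted repellent, was at 8682, 17368 and 13324 against 70, 108 and 113 (-7.04 ± 0.33), and its receptor ROBO1 at 5412, 3246 and 2703 against 1154, 428 and 427 (-2.60 ± 0.31). NRP1, a semaphorin and VEGF receptor, was not called, at 6575, 6238 and 6238 against 9882, 3010 and 2032, with CD43+ replicate 1 above all CD43- samples.

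WNT and BMP genes were lower in 27 of 30 cases. BMP4, the added inducer of the first days, was at 1548, 1755 and 1168 against 24, 4 and 16 (-6.84 ± 0.37), and RSPO2, a WNT enhancer, at 1125, 1894 and 1137 against 11, 4 and 4 (-7.65 ± 0.44). FRZB, a secreted WNT antagonist, was at 14016, 18772 and 18772 against 90, 178 and 256 (-6.72 ± 0.40). Ligands, enhancers and antagonists were therefore lower together. In the insulin-like growth factor (IGF) axis 7 of 12 genes were lower, among them IGFBP3, the main circulating IGF carrier, at 48061, 48061 and 90700 against 622, 404 and 803 (-6.66 ± 0.37). IGF2, the foetal growth factor, and H19, the imprinted RNA next to it, fell by 3.90 and 3.73. IGF1 alone was called higher, at 56, 20 and 100 against 1902, 230 and 182 (3.13 ± 0.81, adjusted p = 0.00130), and CD43+ replicate 1 held most of it. Its adjusted p was 0.0615 in a fit of the 6 samples with a spread for each population.

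Cell cycle genes leaned to CD43+ cells with smaller differences. Of 24 proliferation genes 11 were called higher and none lower, with a median of 1.99, near the fold limit of 2 on the log2 scale. CD43+ samples lay above all CD43- samples for 23 of the 24, against 35.2% of all tested genes. MKI67, a marker of cycling cells, was at 3484, 1406 and 1569 against 8675, 7903 and 7154 (1.998, just short of a call), and CCNA2, cyclin A, at 428, 86 and 152 against 1181, 1228 and 1552 (2.88 ± 0.33). CD43- replicate 1 was the highest CD43- sample for every gene of the list except CCNE1, the one gene lower in CD43+ cells. The count was 19 without that sample, 4 without CD43- replicate 2 and 1 with CD43- replicate 1 as the only CD43- sample. The D cyclins differed in direction, with CCND1 and CCND2 lower in CD43+ cells (-2.96 ± 0.28 and -2.46 ± 0.17) and CCND3, typical of blood cells, higher by 1.94 ± 0.17, short of the fold limit. CDKN1C, the imprinted cell cycle inhibitor p57, fell by 2.53 on the log2 scale.

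Interferon response genes were called higher in 9 of 23 cases, against 11.8% of tested genes, and none was lower. MX1, an antiviral GTPase, was at 66, 295 and 264 against 2774, 1700 and 814 (3.17 ± 0.45), and OASL, of the oligoadenylate synthetase family, at 3, 12 and 15 against 406, 386 and 233 (5.14 ± 0.51). For IFIT1, a sensor of foreign RNA, the groups overlapped, at 160, 772 and 290 against 385, 374 and 127. Of 12 housekeeping genes only HPRT1, of purine salvage, was called (2.90 ± 0.22). GAPDH, of glycolysis, was at 20394, 20394 and 18751 against 48030, 90700 and 90700 (1.89 ± 0.33), while ACTB was at 48046 in 4 of the 6 samples.

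The same CD43 comparison was available from other samples on day 9, with 8.65% of genes called higher and 12.8% lower, and on day 16, with 12.2% and 13.6%. The change of the difference was tested in the same fit. Of the genes called higher on day 12, 1003 were also higher on days 9 and 16, and 1637 of those called lower were lower on both. A further 411 were called higher and 358 lower on day 12 alone. The difference itself changed from day 9 to day 12 in 912 genes upwards (4.61%) and 869 downwards (4.39%), and from day 12 to day 16 in 566 upwards (2.86%) and 429 downwards (2.17%). Both tests use the day 12 samples. The medians of the azurophil and eosinophil lists were larger on day 12 than on either other day, although single members departed from this, among them MPO with 9.33 on day 9 and 8.27 on day 12, where it was at the ceiling. The azurophil list had a median of 3.56 at day 9, 9.63 at day 12 and 4.94 at day 16, with 7 of 13 members called for the change from day 9, and that of the eosinophil list was 5.46, 8.70 and 5.20. The median difference of haemoglobin genes went from 8.37 on day 9 to 6.89 on day 12 and 2.41 on day 16. That of collagens remained below 0 throughout, at -5.22, -5.75 and -6.40. The part of each population in these changes of the difference was not tested.

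**Figure D5:**
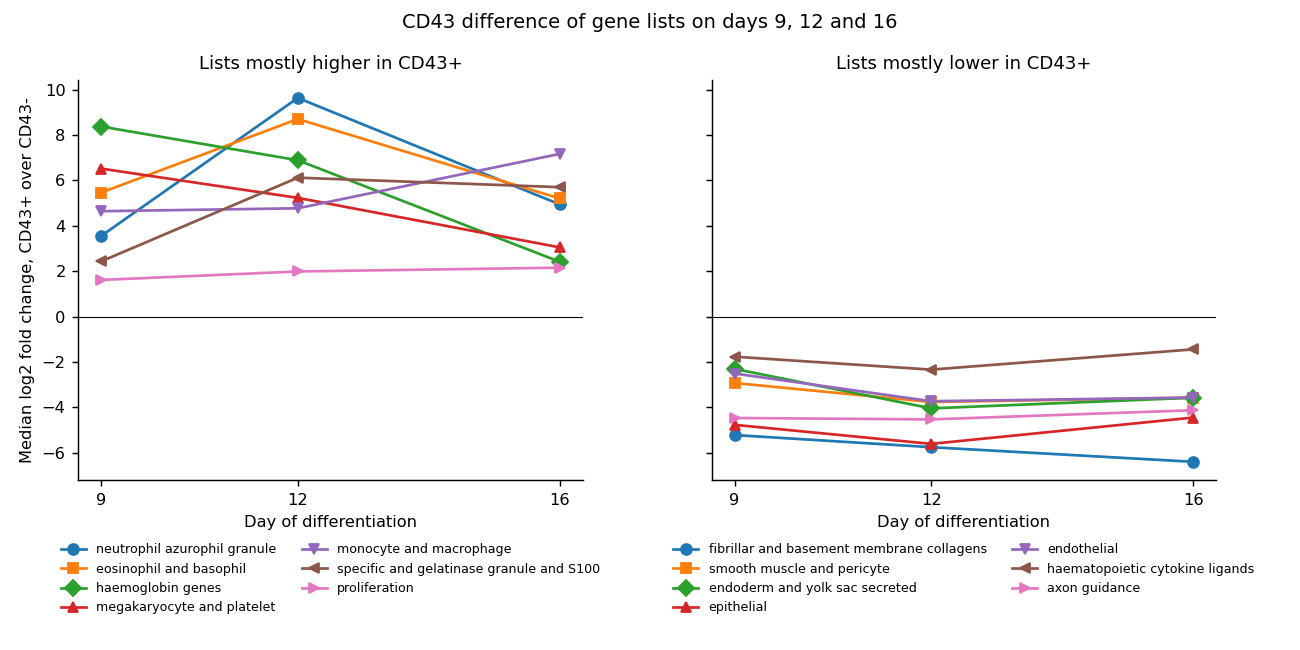
Median log2 fold change, CD43+ over CD43-, of the tested members of 14 gene lists on days 9, 12 and 16, with lists mostly higher in CD43+ cells on the left and mostly lower on the right. The median difference of azurophil granule genes peaks on day 12 at 9.63, that of haemoglobin genes declines from 8.37 to 2.41, and the lists on the right stay below 0 on all 3 days. Day 16 cells were also sorted on CD45.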

How the data were processed

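RNA was sequenced from H1 cells in 34 samples, of which 3 CD43+ and 3 CD43- samples of day 12 are compared here. The authors aligned reads to an Ensembl annotation, quantified them with RSEM and deposited GC-normalized tag counts, made with EDASeq and rounded to whole numbers. The submitters' processing notes also list bcl2fastq, STAR 2.7, Bowtie2 and hg38. The deposited values are treated as a normalized score, since all samples hold the same sorted values, and they are neither read counts nor CPM. Raw counts and depth are unknown, so the number of replicates limits the precision. The GC percent in the deposited table was used only to restrict 1 alternative to the middle of its range. Strand use in the counting is not given in the sources used here.

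Using limma 3.58.1 (lmFit, then eBayes with trend; R 4.3.3), log2(value + 1) was modelled in 1 fit of 33 samples from 11 populations, without a replicate block and with 22 residual degrees of freedom. Testing covered the 19788 genes that reached 10 in 3 or more samples (467 did not), with a call requiring a fold change above 4 and an adjusted p (Benjamini-Hochberg, over all tested genes) below 0.05. With 3 samples against 3 an exact permutation test cannot go below 0.1, so none was used for single genes. The procedure was tested on simulated data. Changes of 3 on the log2 scale were called in the right direction for 86 of 100 genes. For changes of 5 this held for 93 of 100 genes, and 4 unchanged genes were called. All populations of a gene had the same spread there, so the effect of the wider CD43- spread on day 12 could not be seen. Coordinates are those of the deposited table (GRCh38), and 20148 of 20255 identifiers were in GENCODE 29.

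Members and gene lists were chosen with earlier results of these data known. Named genes were SPN and PTPRC, and the 12 largest called rises and falls whose groups do not overlap. Each list gave up to 4 called members per direction, and lists of at most 10 genes gave all members. Up to 3 uncalled members per list with both means at least 1000 were also named. Further genes had the 12 widest CD43- and 6 widest CD43+ replicate ranges, among genes with a median of at least 100 there. The 6 largest changes per direction from day 9 and to day 16 came last, and clone-based names were left out. Promoters are shown for the 4 largest rises that the reference table held, leaving out chromosome 8, where DEFA1, DEFA1B, DEFA3 and DEFA4 lie. Other genes named were chosen after their values were seen. The alternatives were pseudocounts of 0.1 and 10, other filters and scalings, the 6 samples alone, a replicate block, quality weights, robust variances, other thresholds, protein-coding genes, a GC range and leaving out each day 12 sample. A fit with CD43- replicate 1 alone and one with a spread for each population were added after the data were seen.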

Additional observations from a re-analysis of the deposited data

Results flagged for a closer look

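A change of the CD43 difference past both thresholds marked the following genes, which include 10 chosen after their values were seen. All values are differences of log2 fold changes. From day 9 to day 12 the difference rose for the neutrophil genes DEFA3 (10.54), DEFA1B (10.38), DEFA1 (9.80) and S100A12 (9.16), for GLT1D1 (8.04) and MYO7B (7.99), and for the macrophage-associated genes IGF1 (6.78), MRC1 (6.04) and CD14 (3.71). IGF1 and MRC1 turned from lower in CD43+ cells on day 9 (-3.65 and -2.79) to higher on day 12. It fell for RELN (-8.23), SLC30A10 (-7.15), GLP1R (-6.65), EGR4 (-6.59), ST6GALNAC1 (-6.55) and FGF23 (-6.54), for the secreted liver-type proteins APOC3 (-5.55) and TF (-5.43), for the collagen cross-linking enzyme LOX (-5.03) and for KIT (-2.79). RELN, a large secreted matrix glycoprotein, was 1.70 higher in CD43+ cells on day 9 and stood on day 12 at 10084, 10840 and 6702 in CD43- against 96, 89 and 106 in CD43+ samples. GLP1R was listed at 0 in all 6 day 12 samples.

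From day 12 to day 16 the difference rose for the immediate early genes EGR4 (7.24), EGR2 (5.95) and EGR3 (5.84), for HES5 (6.49), SST (5.63), C1QA (5.53), CXCL12 (4.95), CD14 (4.02) and LIF (2.28). CXCL12 and LIF, lower in CD43+ cells on day 12, differed by -0.10 and -0.15 on day 16. It fell for the red cell genes HBZ (-8.93), HBA2 (-8.46), SLC4A1 (-7.11) and HBG2 (-5.79), and for PRTN3 (-6.27), PRG2 (-6.0) and PF4 (-5.90). HBZ, 7.07 higher in CD43+ cells on day 12, was at -1.87 on day 16, where CD45 was part of the sort, so day and gate cannot be told apart.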

How the results depend on the processing

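Called genes numbered 5176 in all, and the direction of every named gene past the thresholds was kept, except that TBC1D3D, not called, reached -3.48 with CD43- replicate 1 as the only CD43- sample. Of 241 named genes 204 kept their call under all alternatives other than the 2 thresholds. The total became 8985 at a fold change above 2 and 13461 by adjusted p alone, and 2379 in the middle of the GC range, where fewer genes were tested. Genes called higher became 1447 with a pseudocount of 10, 1537 with a minimum value of 100, 4727, 7703 and 1084 under those 3 settings, and genes called lower 5758 and 1295 under the last 2. The count for the change from day 9, 1781, became 1090 with a pseudocount of 10, 3433, 5431 and 893, and that for the change to day 16, 995, became 473, 630 with a minimum of 100, 1951, 3364 and 464. Leaving out 1 day 12 sample gave 5142 to 5242 calls, 2291 to 2415 of them higher and 2815 to 2904 lower, 1591 to 1900 and 888 to 1111 for the 2 changes, and 12902 to 13641 genes without overlap, against 12187 with all samples. Median-of-ratios scaling moved the median of all genes from 0.22 to 0.12. Protein-coding genes alone gave 1695 higher and 2581 lower.

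A fit of only the 6 samples called 4949 genes, 4945 of them shared with the 5176. Same-numbered CD43+ and CD43- samples deviated together across genes at r = 0.084, 0.108 and 0.039, each sample correlating best with its own number, a hint from the data only, and the numbers were not taken as pairs. A replicate block within day 12 called 5179 genes, and in the fit of 6 samples 4816, where 10 of 20 macrophage genes were called and the adjusted p was 0.0669 for CSF1R, 0.118 for C1QA, 0.162 for VSIG4 and 0.0511 for IGF1. The fits of 6 samples gave no change between days. Mast cell calls fell to 4 with a minimum value of 100, lymphoid calls to 4 there and with a pseudocount of 10, and 6 pluripotency genes were lower with CD43- replicate 1 alone. HLA-DQB1 was not called without CD43- replicate 2 or CD43+ replicate 3 (-1.96 and -1.62). The cause of these changes was not tested. Low values near 0 in CD43- samples limit what their folds show.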

Other observations

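The genes with the widest range among the CD43- replicates included several that the gene lists do not hold. VCAN-AS1, antisense to the versican gene, was at 0, 192 and 415 in CD43- samples and at 81, 163 and 184 in CD43+ samples, and without strand its reads and those of versican cannot be told apart. The read-through gene PPAN-P2RY11 was at 0, 142 and 126 against 319, 344 and 276 (3.57 ± 1.61, limma adjusted p = 0.0518). S100B was at 1, 174 and 231 against 2822, 2369 and 2056, and SIGLEC1, a macrophage sialic acid receptor, at 4, 278 and 448 against 5406, 1726 and 984. TBC1D3D, of a family of near-identical copies, was at 260, 0 and 0 against 108, 117 and 0.

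Among CD43+ samples, FCGBP (407, 127 and 32) and the sterol transporter ABCG1 (556, 140 and 46) had their highest value in replicate 1, whereas AMIGO3 was at 176, 12 and 214. For the 2329 genes called higher in CD43+ cells, the lowest and highest CD43- replicates were counted, with ties given to the lowest-numbered replicate. Replicate 1 was counted as lowest in 56.4% and as highest in 35.6%, and replicate 3 as highest in 42.3%. Ties inflate the counts of replicate 1, since 181 of these genes were at 0 in all CD43- samples.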
